A study of Montastraea cavernosa with 311 samples.

Results

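The libraries at time label 6 and at baseline from 10 shallow control colonies of the reef coral Montastraea cavernosa were compared colony by colony. The colonies were taken from the source names EFGB_shallow and WFGB_shallow, the East and West Flower Garden Banks in the Gulf of Mexico. Each library labelled time 6 was matched to the library without a time label whose title carried the same colony number at the same site. This gave 20 libraries, 6.43% of those in the series: 10 at time 6 (5 EFGB, 5 WFGB) and their 10 baselines. Tag-based RNA sequencing, which counts short reads from the 3' end of transcripts, was done on coral total RNA, and each library held counts of the animal and of its Cladocopium alga. Per the design text, the series compared shallow with mesophotic colonies at 4 sites and followed depth treatments through time in an experiment. No strain, sex, age or drug is given in the labels, and the time label has no unit. The titles at time 6 carry the code V-16, and the baseline titles do not, so time since baseline, season and handling in the experiment cannot be told apart. Only counts of the 17901 host isogroups (clusters of assembled transcripts, ids starting with Mcavernosa) were used for expression, given as CPM within the host total. The baseline of EFGB colony 190 had 19837 host counts, under the minimum of 20000, which left 9 complete pairs (4 EFGB, 5 WFGB) for isogroups.

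A shallow reef coral is an animal that houses photosynthetic algae inside the cells of its gut lining. The algae pass fixed carbon to the host, and their density and pigment vary with light, temperature and season. The host also feeds and defends itself with nematocytes, stinging cells that carry toxins, and makes mucus and skeleton. Colonies of a coral can differ from one another in expression, and comparing a colony with itself removes what is constant in that colony. The p-values below measure the spread between colonies.

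At time 6 the libraries were deeper than at baseline but held fewer different host isogroups. Host counts ran from 20931 through a median of 309230 to 432971 at time 6, and from 19837 through 51222 to 190987 at baseline. They were higher at time 6 in 10 of 10 pairs, by a mean of 2.15 ± 0.39 on the log2 scale (SE), with an adjusted p of 0.00586 in an exact 2-sided sign-flip permutation test. The raw p of 0.00195 is the smallest that 10 pairs can give. The number of host isogroups with at least 1 count was 1279 at the lowest, 1485 at the median and 5431 at the highest at time 6, against 2685, 3439 and 4764 at baseline. The ranges overlapped through WFGB colonies 119 and 121, which had 5431 and 4045 isogroups at time 6. These were also the shallowest libraries at time 6, with 48858 and 20931 host counts. EFGB colony 169 lay between, with 2498 isogroups at time 6 and 2685 at baseline, and the other 7 colonies had between 1279 and 1617 at time 6. Over the 9 complete pairs the log2 change was -0.86 ± 0.31 (SE), lower at time 6 in 7 of 9, with an adjusted p of 0.0273 in the exact sign-flip test over 3 library measures. After every library was thinned to the lowest host total the log2 change was -1.14, with an exact p of 0.0273. The exact p was 0.0547 when any of colonies 118, 120, 124, 187, 188 or 189 was left out.

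**Figure D1:**
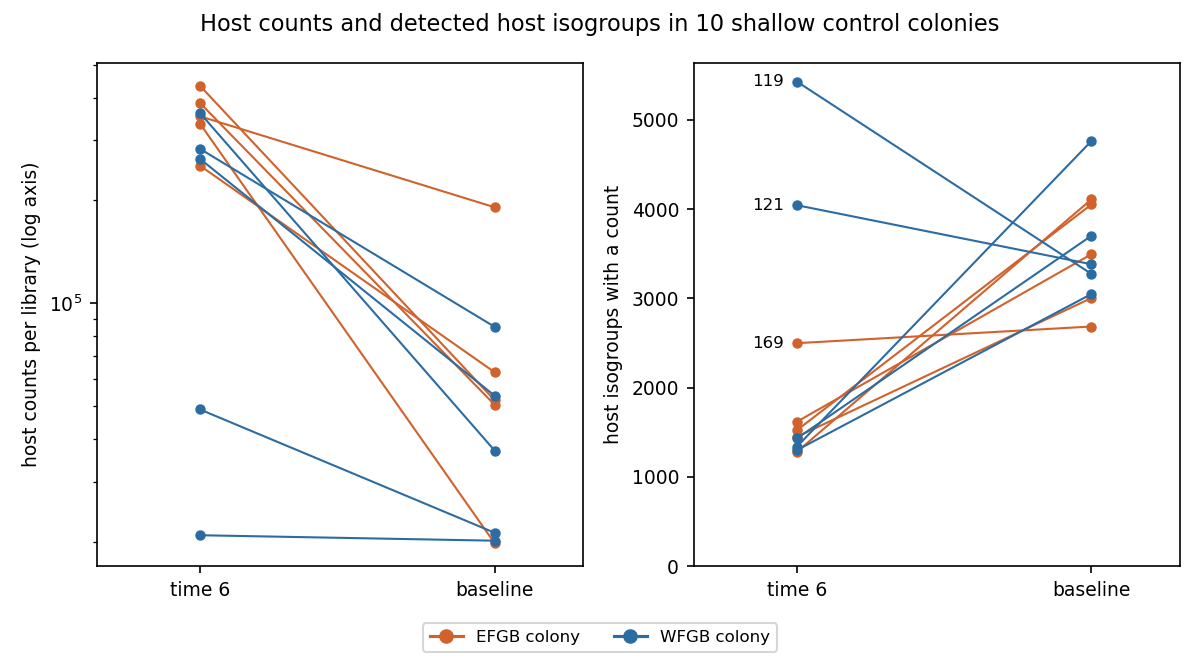
Host counts per library (left, log axis) and host isogroups with at least 1 count (right), at time 6 and at baseline, with 1 line per colony for 10 colonies. Counts were higher at time 6 in every colony, and isogroups were fewer at time 6 in all but colonies 119 and 121.

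Fewer isogroups went with counts held by fewer transcripts. The most abundant isogroup took from 2.37% through a median of 12.6% to 17.4% of host counts at time 6, against 1.95%, 3.13% and 5.86% at baseline. The 10 most abundant isogroups together took 16.9% at the lowest, 31.7% at the median and 37.2% at the highest at time 6, and 14.5%, 16.9% and 23.2% at baseline. The part of this concentration in the isogroup results below was not tested apart from the alternatives given with them. Low numbers of isogroups were not found at time 6 alone: the natural EFGB shallow libraries titled V-16 held 945 at the lowest, 2534.5 at the median and 3655 at the highest (n = 10). Shallow controls at time 12 held 1130, 3221 and 5454 isogroups (n = 9).

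The alga's part of the sequenced RNA was smaller at time 6. The symbiont share of all counts was 1.27% at the lowest, 3.37% at the median and 11.0% at the highest at time 6, against 4.93%, 10.8% and 38.1% at baseline. The mean change in log2 odds was -1.77 ± 0.61 (SE, n = 10), lower in 7 of 10 pairs, with an adjusted p of 0.0273 in the exact sign-flip permutation test. In bulk RNA, fewer algal cells and less RNA per algal cell cannot be told apart, nor can either from more host RNA. At EFGB all 5 colonies were lower, with shares of 1.27%, 2.17% and 2.50% (lowest, median, highest) at time 6 and 4.93%, 13.2% and 30.2% at baseline, without overlap. At WFGB the shares were 4.24%, 8.12% and 11.0% at time 6 and 6.04%, 8.43% and 38.1% at baseline, which overlapped. The change in log2 odds was -2.85 ± 0.68 at EFGB and -0.70 ± 0.80 at WFGB (SE, n = 5 each), a difference of -2.15 ± 1.05 with an exact permutation p of 0.0873.

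The baselines of 3 colonies stood in a stretch of libraries with high symbiont shares. Library numbers fall into stretches in which no barcode pair repeats, read here as barcode runs, a batch inferred from the labels. Run 1 held the baselines of colonies 169, 189 and 124, and the WFGB and EFGB libraries in it had a median symbiont share of 19.4% (n = 39), against 7.02% in runs 2 to 5 (n = 138). Without those 3 colonies the mean change in log2 odds was -0.79 with an exact sign-flip p of 0.156 (n = 7). The change was then -1.94 at EFGB (n = 3) and 0.07 at WFGB (n = 4), a difference of -2.02 with an exact permutation p of 0.0286, the smallest that 3 against 4 colonies can give. Both libraries of a colony were in the same run only for colonies 118 and 120, both from WFGB, where the log2 odds changed by 0.46 and 0.08. No EFGB colony had both libraries in 1 run, so a within-run value could not be had there.

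The low share in EFGB colonies at time 6 was also seen against natural colonies, outside the experiment, with the same title code. Their 1.27% to 2.50% lay wholly below the 4.47% to 13.5% of the 10 natural EFGB shallow libraries titled V-16, whose median was 7.98%. On the log2 odds scale the gap was -2.06 ± 0.26 (SE; 5 and 10 libraries), with an exact permutation p of 0.000333, the smallest that test can give. Leaving out the natural libraries of run 1 gave -1.86 with an exact permutation p of 0.000777 (n = 5 and 8). At time 12 the EFGB controls had 1.75%, 2.93% and 7.56% (n = 4), and the WFGB controls 8.71%, 13.7% and 14.6% (n = 5).

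**Figure D2:**
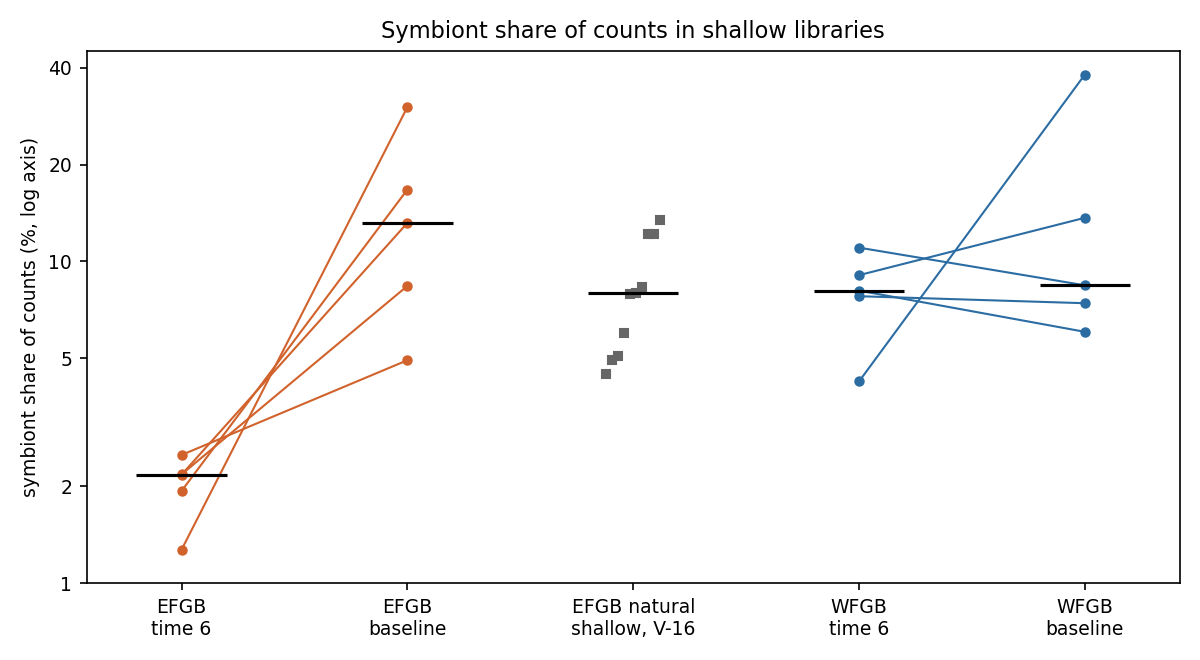
Symbiont share of all counts (%, log axis) in EFGB and WFGB shallow controls at time 6 and baseline (lines join a colony's libraries) and in 10 natural EFGB shallow libraries titled V-16 (squares), with medians as black bars. The 5 EFGB libraries at time 6, 1.27% to 2.50%, sit below all others.

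Compared within colonies, few host isogroups were called as taking a larger share at time 6, and more as taking a smaller one. With edgeR's quasi-likelihood test, colony as a block and Benjamini-Hochberg adjustment, 57 of 622 isogroups tested passed an adjusted p of 0.05 (9.16%). Of these, 7 rose at time 6 (1.13% of those tested) and 50 fell (8.04%), and 44 of the 57 have a gene name. With no replicate block the balance turned, with 14 isogroups higher and 1 lower and a median log2 fold change of -0.18. The median log2 fold change over all 622 was -1.22, beside the smaller number of isogroups detected at time 6. It was -1.39 with DESeq2's size factors and -1.73 with library size alone, so a fold change is best read against that median. With library size alone 64 isogroups were called, 1 higher and 63 lower. With limma on log2 CPM, 224 of 2186 isogroups were called (10.2%), 7 higher (0.32%) and the rest lower (9.93%), with a median log2 change of -1.05. Both tools called 51 isogroups, 89.5% of edgeR's calls and 22.8% of limma's.

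The named isogroup that rose with the smallest p encodes a sea anemone cytotoxic protein (Mcavernosa18854), of the family of pore-forming toxins with which sea anemones lyse membranes. It had 2251 CPM at the lowest, 43560 at the median and 153395 at the highest at time 6, against 2966, 12094 and 19170 CPM at baseline. The lowest values at time 6 were those of WFGB colonies 119 (2251 CPM) and 121 (4682 CPM), which were under their baselines, and the other 7 colonies had 21255 CPM or more. Its log2 fold change was 2.86 ± 0.64 (SE), or 4.08 above the median isogroup, higher in 7 of 9 pairs, with an adjusted p of 0.00319 in edgeR's quasi-likelihood test and 0.0255 in limma.

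Ribosomal protein L6 (Mcavernosa17045), part of the large ribosomal subunit, was among the most abundant host transcripts. It had 8743 CPM at the lowest, 116038 at the median and 174239 at the highest at time 6, against 18888, 22714 and 58560 CPM at baseline. The log2 fold change was 1.83 ± 0.55, higher in 7 of 9 pairs, and again colonies 119 and 121 went the other way. The adjusted p was 0.0368 in edgeR and 0.0677 in limma, and 0.0733 in edgeR with library size alone.

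The other 3 named isogroups that rose belong to signalling, respiration and protein repair. NADH dehydrogenase Fe-S protein 6 (Mcavernosa15890), an accessory subunit of respiratory complex I, had 0, 1557 and 3790 CPM at time 6 (lowest, median, highest) and 0, 74.6 and 540 CPM at baseline. It was higher in 8 of 9 pairs, the exception being colony 121, with a log2 fold change of 4.37 ± 1.39 and an edgeR adjusted p of 0.0391. Methionine sulfoxide reductase (Mcavernosa03516), which repairs oxidised methionine, had 47.8, 1022 and 5839 CPM at time 6 and 0, 159 and 846 CPM at baseline. Its ranges overlapped, with 7 of 9 pairs higher, a log2 fold change of 3.89 ± 1.35 and an edgeR adjusted p of 0.0473. A receptor-type protein tyrosine phosphatase (Mcavernosa06612), which removes phosphate from tyrosines, had 191.1, 2337 and 13861 CPM at time 6 and 161.96, 672 and 2063 CPM at baseline. It was higher in 8 of 9 pairs, at 2.76 ± 0.87 on the log2 scale, with an adjusted p of 0.0391 in edgeR and 0.0736 in limma. The adjusted p of these 3 passed 0.05 in edgeR under neither of the other scalings, and the other 2 isogroups that rose have no informative name.

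**Figure D3:**
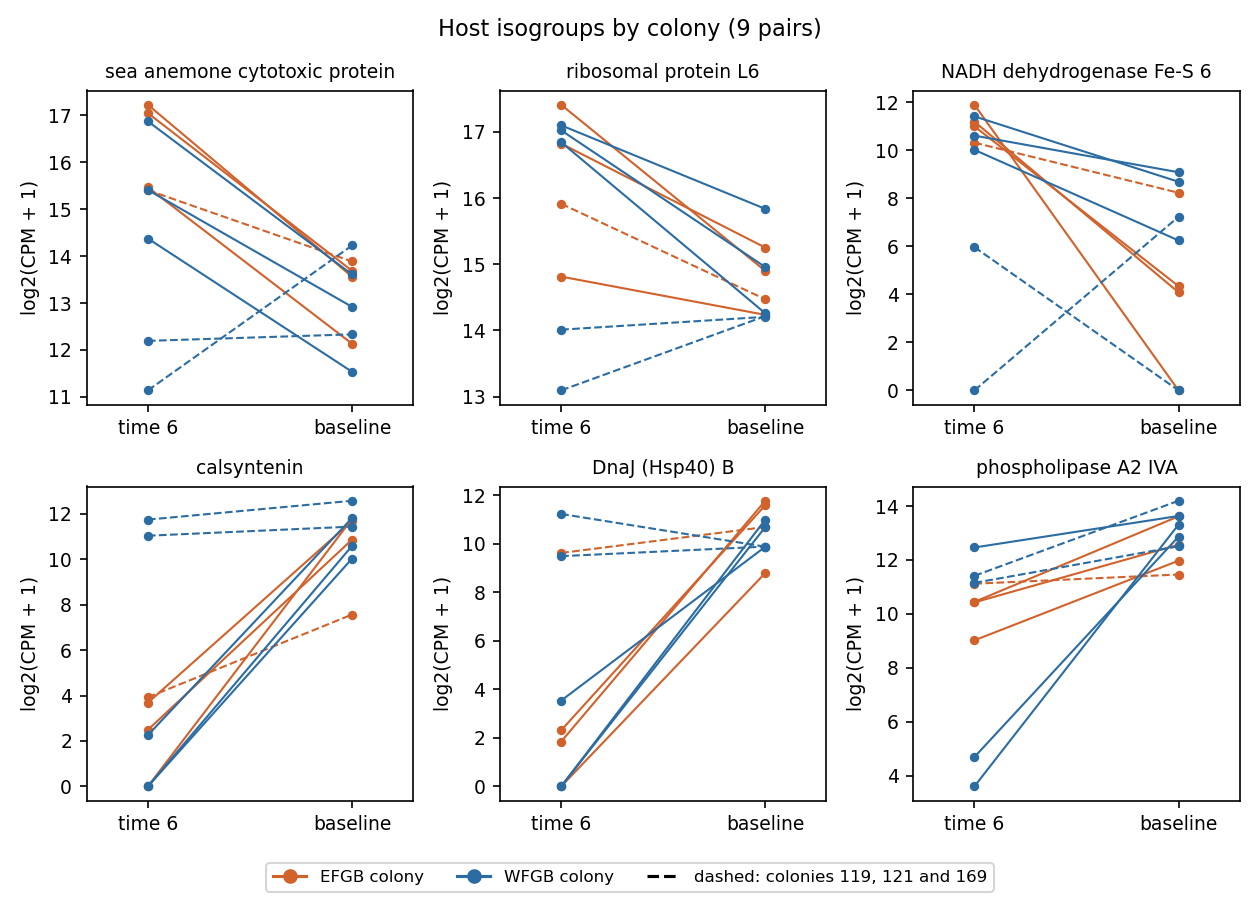
Level of 6 host isogroups as log2(CPM + 1) at time 6 and baseline, 1 line per colony for 9 colonies, with EFGB in orange, WFGB in blue and colonies 119, 121 and 169 dashed. Upper-row levels were higher at time 6 in all colonies but 119 and 121 (for the NADH dehydrogenase, all but 121), and calsyntenin and DnaJ were near 0 at time 6 in most colonies but not in 119 and 121, nor, for DnaJ, in 169.

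The named isogroup that fell with the smallest p encodes a cell-surface protein. Calsyntenin (Mcavernosa12659), a transmembrane protein of the cadherin superfamily known from vertebrate synapses, had 0, 4.62 and 3439 CPM at time 6 (lowest, median, highest) and 188, 2776 and 6108 CPM at baseline. The 2 high values at time 6 were 3439 CPM in colony 119 and 2102 CPM in colony 121, and the other 7 colonies had at most 14.2 CPM. It was lower in 9 of 9 pairs, with a log2 fold change of -6.85 ± 1.55 and an adjusted p of 0.00319 in edgeR and 0.000947 in limma. Relative to the median isogroup the log2 change was -5.64.

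Chimerin (Mcavernosa05750), a GTPase-activating protein for the switch protein Rac, had 0, 0 and 471 CPM at time 6 and 140.96, 267.03 and 1071 CPM at baseline. It was lower in 8 of 9 pairs, at -6.64 ± 1.88 (edgeR adjusted p = 0.034). B-cell linker (Mcavernosa00518), an adaptor of antigen receptor signalling in vertebrates, had 0, 0 and 778 CPM at time 6 and 235, 596 and 1859 CPM at baseline, with a log2 fold change of -7.29 ± 1.96 (edgeR adjusted p = 0.0322). The highest value at time 6 was that of colony 119 for both. The median colony at time 6 had no count, so the fitted fold depends on the prior count and is not a bound.

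Transcripts for a collagen receptor and for protein processing fell in the same way. The discoidin domain receptor tyrosine kinase (Mcavernosa25058), a receptor for collagen in mammals, had 0, 0 and 1187 CPM at time 6 and 10.5, 750 and 942 CPM at baseline (log2 fold change -6.73 ± 2.06, edgeR adjusted p = 0.0373). Proprotein convertase (Mcavernosa11977), a protease of the subtilisin-kexin type that cleaves secreted precursors, had 0, 3.96 and 839 CPM at time 6 and 365, 939 and 4537 CPM at baseline (-5.30 ± 1.69, edgeR adjusted p = 0.0391). A DnaJ (Hsp40) subfamily B member (Mcavernosa31810), a co-chaperone of Hsp70, had 0, 3.96 and 2395 CPM at time 6 and 442, 1647 and 3489 CPM at baseline (-6.29 ± 1.87, edgeR adjusted p = 0.0368). Each was lower in 8 of 9 pairs, and the exception, colony 119, also had the highest value at time 6.

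Of the other named isogroups that fell, most were also undetected at time 6 in the median colony or close to it. Sperm associated antigen 1 (Mcavernosa13480), which in humans is needed to assemble the dynein arms of cilia, had 0, 0 and 1003 CPM at time 6 and 161.96, 496 and 1361 CPM at baseline (-6.13 ± 1.85, edgeR adjusted p = 0.0373). An isogroup named Programmed cell death (Mcavernosa29751) had 0, 0 and 334 CPM at time 6 and 0, 319.4 and 654 CPM at baseline (-7.02 ± 1.95, edgeR adjusted p = 0.0339). Both had their highest value at time 6 in colony 121, the 1 colony in which they were not lower. An N-acetyltransferase (Mcavernosa04800) had 0, 2.78 and 1312 CPM at time 6 and 153.8, 297.4 and 1457 CPM at baseline (-5.85 ± 1.81, edgeR adjusted p = 0.0373), and its highest value at time 6, in colony 187, was the 1 that lay above its own baseline. More abundant were a RING finger protein (Mcavernosa19051), a domain of ubiquitin ligases, and coiled-coil domain containing 64B (Mcavernosa21005). The RING finger protein had 2.59, 767 and 29191 CPM at time 6 and 3998, 12243 and 19546 CPM at baseline, with its highest value at time 6 in colony 121, the 1 colony in which it was higher (-4.33 ± 1.28, edgeR adjusted p = 0.0389). Coiled-coil domain containing 64B had 0, 76.2 and 1517 CPM at time 6 and 189, 1832 and 16777 CPM at baseline, lower in 9 of 9 pairs (-3.77 ± 1.08, edgeR adjusted p = 0.0341). The 11 isogroups described here as fallen were also called by limma. They were named only if lower in at least 80% of pairs, so their counts of lower pairs follow from that rule.

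The colonies did not share the pattern evenly. Of the 50 isogroups called lower, 27 had a median of 0 counts at time 6. In 42 of the 50 the highest library at time 6 was that of colony 119 or 121, the colonies with most isogroups detected. Among colonies 118, 120, 124, 187, 188 and 189, 41 of the 50 were lower in every pair, and 31 had no count at time 6 in at least 4 of these 6. The same 50 were lower in 25 in colony 119, in 27 in colony 121 and in 44 in colony 169. The 7 isogroups called higher were higher in all 6 of those colonies and in 169, while 2 were higher in colony 119 and 0 in colony 121. This division of the colonies was made after their values were seen, and the calls were made on the same pairs.

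The number of calls rested on single colonies. No isogroup was called without colony 187, 189 or 124, 2 were called without 188 or 118, and 14 without 120 (2.21% of those tested), against 15.3% of those tested without 119 and 15.8% without 121. Without both 119 and 121, 199 of 789 isogroups were called, 34 higher and 165 lower, including 50 of the 57. In colonies 119, 121 and 169 alone none of 565 was called by edgeR (11 had an unadjusted p under 0.05), with a median log2 change of -0.06. With detected isogroups (log2) as a covariate none of 622 was called (16 had an unadjusted p under 0.05), and the median was -0.50. With libraries thinned to the lowest host total 3 of 229 were called, all lower, and with barcode run as a covariate 33 were called, 20 of them among the 57. DESeq2 called 50% of the isogroups, 58 of them higher, including all 57.

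Among the most abundant host transcripts of these libraries, several did not pass the test. CCAAT/enhancer binding protein alpha (Mcavernosa26831), a transcription factor, had 6459, 11786 and 30492 CPM at time 6 and 7612, 16090 and 32230 CPM at baseline, with overlapping ranges. Its log2 fold change was 0.34 ± 0.61 (edgeR adjusted p = 0.711), and it turned to -0.25 with library size alone. An isogroup named Ribosomal protein (Mcavernosa01208) had 1661, 3355 and 23681 CPM at time 6 and 8032, 14442 and 27962 CPM at baseline, at -1.29 ± 0.66, which missed the threshold in edgeR (adjusted p = 0.16) and passed in limma (adjusted p = 0.0305). Of abundant isogroups without an informative name, Mcavernosa04377 fell in 9 of 9 pairs, with 11.9, 1965 and 6345 CPM at time 6 and 7597, 13955 and 21001 CPM at baseline (-2.72 ± 0.75, edgeR adjusted p = 0.0339). Its groups did not overlap. Mcavernosa33295 had 11.3, 39.6 and 39845 CPM at time 6 and 8898, 21767 and 53705 CPM at baseline (-6.25 ± 1.90, edgeR adjusted p = 0.0473), with its highest value at time 6 in colony 121. Mcavernosa22970 went the other way, with 1051, 22008 and 56114 CPM at time 6 and 2220, 4322 and 16252 CPM at baseline, and missed the threshold at 2.02 ± 0.72 (edgeR adjusted p = 0.0545). Mcavernosa17048 was at -0.99 ± 0.68 (adjusted p = 0.302) and Mcavernosa23833 at -1.48 ± 0.71 (adjusted p = 0.144).

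Ribosomal proteins, the respiratory chain and vesicle traffic had medians above that of all isogroups in edgeR and limma. They were not alone: peptidases (0.17 in edgeR, -0.64 in limma) and cilia markers (0.30 and -0.65) also lay above it. So did iron and heme and lipid metabolism. Innate immunity and signalling kinases had medians below it in both. The same held for extracellular matrix, splicing, mucus and gland, and muscle and actin lists. Membership of a list rests on words found in gene names. A list's edgeR counts are set beside the 1.13% higher and 8.04% lower among all isogroups tested. Its limma counts are set beside 0.32% higher and 9.93% lower. Of 40 ribosomal proteins tested by edgeR 1 rose and 2 fell, with a median log2 change of 0.17 against -1.22 for all. Ribosomal protein L6 was the 1 that rose. L23 (Mcavernosa00265) fell, with 0, 5.67 and 553 CPM at time 6 and 350, 621 and 1141 CPM at baseline (-5.20 ± 1.69, edgeR adjusted p = 0.0393), and so did L19 (Mcavernosa13093, -5.42 ± 1.85, adjusted p = 0.047). The summed level of the list was 54560 CPM at the lowest, 173707 at the median and 228847 at the highest at time 6, against 68458, 99221 and 126276 CPM at baseline, higher in 8 of 9 pairs. Much of that sum was L6 itself. In limma 0 of 59 ribosomal proteins rose and 4 fell, with a median of -0.43 against -1.05 for all.

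Of 7 respiratory chain and ATP synthase isogroups, 1 rose, the complex I subunit above, and 0 fell, with a median log2 change of 0.82. In limma the list's median was 0.17 against -1.05 for all. A core subunit of complex I (Mcavernosa30570) was lower in 8 of 9 pairs, at -2.35 ± 0.97, which missed the threshold in edgeR (adjusted p = 0.0967), and it passed in limma at -2.76 (adjusted p = 0.0266). Of 6 vesicle traffic isogroups none passed the test in edgeR, and the median was 1.14, against -0.59 over 22 isogroups in limma, where 1 fell. The summed level of that list was higher at time 6 in 9 of 9 pairs, at 7348, 11703 and 27197 CPM (lowest, median, highest) at time 6 and 5749, 7133 and 10657 CPM at baseline. Its member with the smallest p was an isogroup named RAB (Mcavernosa20310), a small GTPase of membrane traffic, with 286.7, 5772 and 17666 CPM at time 6 and 783, 1691 and 5639 CPM at baseline (1.95 ± 0.79, edgeR adjusted p = 0.0895).

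Innate immunity had 0 of 7 members past the edgeR test and 3 of 18 lower in limma, with medians of -2.18 and -1.58. Its summed level was lower at time 6 in 9 of 9 pairs, at 2747, 7450 and 19302 CPM at time 6 and 13204, 19640 and 25500 CPM at baseline, with some overlap. Interferon regulatory factor 2 binding protein (Mcavernosa07301), a transcriptional corepressor in mammals, had 11.5, 1522 and 3187 CPM at time 6 and 3985, 8079 and 11510 CPM at baseline. These groups did not overlap, yet the log2 fold change of -2.18 ± 0.83 missed the threshold in edgeR (adjusted p = 0.0685) and passed it in limma (adjusted p = 0.0118). The word interferon in its name placed this isogroup in the list, and it made up much of the summed level at baseline. That sum thus does not stand for the list as a whole.

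Among chaperones 1 of 15 fell, the DnaJ member above, with a median log2 change of -1.10, close to that of all isogroups. HSP90 (Mcavernosa01595), an abundant cytosolic chaperone, was at 1.34 ± 0.88 (edgeR adjusted p = 0.283), while the endoplasmic reticulum Hsp70 (Mcavernosa18764) was lower in 9 of 9 pairs at -1.92 ± 0.81 (adjusted p = 0.102). Limma called 8 of 29 chaperones, all lower, where 9.93% of all isogroups it tested were called lower and 0.32% higher. The summed chaperone level was higher at time 6 in 1 of 9 pairs, at 11185, 17125 and 24967 CPM at time 6 and 18244, 27122 and 50858 CPM at baseline.

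Metabolic lists held single calls. Cytosolic phospholipase A2 group IVA (Mcavernosa22551), which frees arachidonic acid from membranes, fell in 9 of 9 pairs. It had 11.1, 1393 and 5647 CPM at time 6 and 2817, 7456 and 18786 CPM at baseline (-2.36 ± 0.81, edgeR adjusted p = 0.047), and was the 1 of 8 lipid isogroups called. Thioredoxin (Mcavernosa14272), a redox protein, was the 1 of 4 antioxidants called, with 0, 0 and 1406 CPM at time 6 and 143, 712 and 2577 CPM at baseline (-5.98 ± 2.02, edgeR adjusted p = 0.047). Glycolysis and the citric acid cycle had 0 of 6 members past the edgeR test, with a median of -2.87, while the limma median over 14 members was -1.11, close to that of all isogroups. Its summed level was higher at time 6 in 5 of 9 pairs, with medians of 6065 CPM at time 6 and 4729 CPM at baseline. In that list fructose-bisphosphate aldolase (Mcavernosa30913) was at -5.27 ± 2.01 (edgeR adjusted p = 0.0685), and malate dehydrogenase (Mcavernosa19235) at 2.09 ± 0.88 (adjusted p = 0.102), with 95.6, 4062 and 9627 CPM at time 6 and 247.8, 893 and 6864 CPM at baseline. Iron and heme had 0 of 9 members called, and a ferritin-like isogroup (Mcavernosa17017), an iron store, had 621, 7716 and 12915 CPM at time 6 and 357, 2161 and 7875 CPM at baseline (1.66 ± 0.78, edgeR adjusted p = 0.134).

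Regulatory and structural lists likewise gave few calls. Cryptochrome 1 (Mcavernosa10901), a blue-light receptor and clock protein of animals, was the 1 light and clock isogroup tested and fell. It had 0, 0 and 1290 CPM at time 6 and 0, 423 and 895 CPM at baseline, was lower in 7 of 9 pairs and higher in colonies 119 and 121 (-6.79 ± 2.00, edgeR adjusted p = 0.0368). Of 8 signalling kinases 2 fell, the discoidin receptor above and a calcium-dependent protein kinase (Mcavernosa03065, -6.24 ± 1.90, edgeR adjusted p = 0.0373), with a list median of -2.66 (-1.30 over 36 in limma). Of 9 splicing and RNA-binding isogroups 1 fell (Mcavernosa18693, -6.57 ± 1.91, adjusted p = 0.0368), as did 1 of 8 proteasome and ubiquitin isogroups, an E3 ligase of the HUWE1 type (Mcavernosa14227), with 0, 3.53 and 614 CPM at time 6 and 107.97, 446 and 639 CPM at baseline (-5.39 ± 1.85, adjusted p = 0.0473). No member passed among 11 translation factors, 10 extracellular matrix, 8 peptidase, 3 apoptosis and 1 histone isogroups tested by edgeR. Calcification and nutrient exchange with the alga had no member tested by edgeR, and no isogroup name matched the fluorescent protein list. Limma tested 2 and 4 of theirs and called none for calcification and 1, lower at time 6, for nutrient exchange.

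Summed levels of the cell marker lists differed in direction, with few members of each tested by edgeR. The nematocyte list was carried by the cytotoxic protein, the 1 of its 14 members that edgeR tested. Limma tested 2 members, with a median log2 change of 0.65 against 1.92 for the cytotoxic protein. The sum of this list thus follows 1 transcript and gives no direction for nematocyte markers as a set. The summed level of the list was 2272, 43872 and 153683 CPM at time 6 and 3142, 12332 and 19217 CPM at baseline. Mucus and gland markers had 1 of 6 members called, phospholipase A2 IVA, which the word lipase in its name placed in the list and which is not specific to gland cells. Their summed level was lower in 8 of 9 pairs, at 4479, 8108 and 20496 CPM at time 6 and 13281, 23729 and 35836 CPM at baseline. In the 6 colonies other than 119, 121 and 169, phospholipase A2 IVA had medians of 946 CPM at time 6 and 8816 CPM at baseline. An alpha/beta-hydrolase lipase (Mcavernosa17996), also matched by the word lipase, had 934 and 9105 CPM there, but was higher at time 6 in colonies 119, 121 and 124. Much of the sum at baseline was these 2 isogroups, so it gives no direction for gland markers as a set. In the muscle and actin list 1 of 7 fell, Arp2/3 complex subunit 4 (Mcavernosa23568), which helps to branch actin filaments (-6.46 ± 2.24, edgeR adjusted p = 0.0473). Cilia had 0 of 5, neurons 0 of 2 and germ line 1 of 3 members called, the last being sperm associated antigen 1, which is not specific to sperm. Vitellogenin (Mcavernosa26674), the yolk protein, was at -1.10 ± 1.08 (edgeR adjusted p = 0.496).

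The remaining list members with the smallest p each way did not pass the edgeR test. Above their baselines were an actin binding isogroup (Mcavernosa02899, 2.95 ± 1.44, adjusted p = 0.145), an aminopeptidase (Mcavernosa29351, 2.52 ± 1.46, 0.218), an activator of the microtubule motor dynein (Mcavernosa18494, 2.46 ± 1.08, 0.111), the splicing protein SmD2 (Mcavernosa25197, 2.2 ± 1.58, 0.327) and elongin B (Mcavernosa23758, 2.19 ± 1.22, 0.201). With smaller values followed an acyl-CoA synthetase (Mcavernosa00832, 1.68 ± 1.08, 0.267), which activates fatty acids, a collagen (Mcavernosa10307, 1.66 ± 1.31, 0.38), protein disulfide isomerase (Mcavernosa14457, 1.54 ± 1.00, 0.279) and the lysosomal protease cathepsin (Mcavernosa22587, 1.43 ± 1.27, 0.452). Near 1 on the log2 scale were a ubiquitin-conjugating enzyme (Mcavernosa22255, 1.16 ± 1.84, 0.677), a hormone-sensitive lipase (Mcavernosa28398, 1.06 ± 1.27, 0.584), a lysosomal adaptor of MTOR signalling (Mcavernosa03238, 1.03 ± 1.37, 0.622) and a GABA(A) receptor-associated protein (Mcavernosa27195, 0.95 ± 1.24, 0.616). Below their baselines were a dynein heavy chain (Mcavernosa31951, -5.37 ± 1.93, 0.0564), a serine-arginine matrix protein of splicing that the word matrix put in another list (Mcavernosa01012, -4.51 ± 1.81, 0.085), a chromodomain helicase (Mcavernosa28819, -4.37 ± 2.23, 0.162) and a cytochrome b5 (Mcavernosa21412, -4.11 ± 1.81, 0.111). So were a protease (Mcavernosa28252, -3.93 ± 1.72, 0.111), a vesicle protein of the BEACH family (Mcavernosa05007, -3.19 ± 1.60, 0.156), a glutamyl-prolyl-tRNA synthetase (Mcavernosa19924, -3.01 ± 1.75, 0.219) and a caspase recruitment protein (Mcavernosa07552, -0.84 ± 1.5, 0.711).

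**Figure D4:**
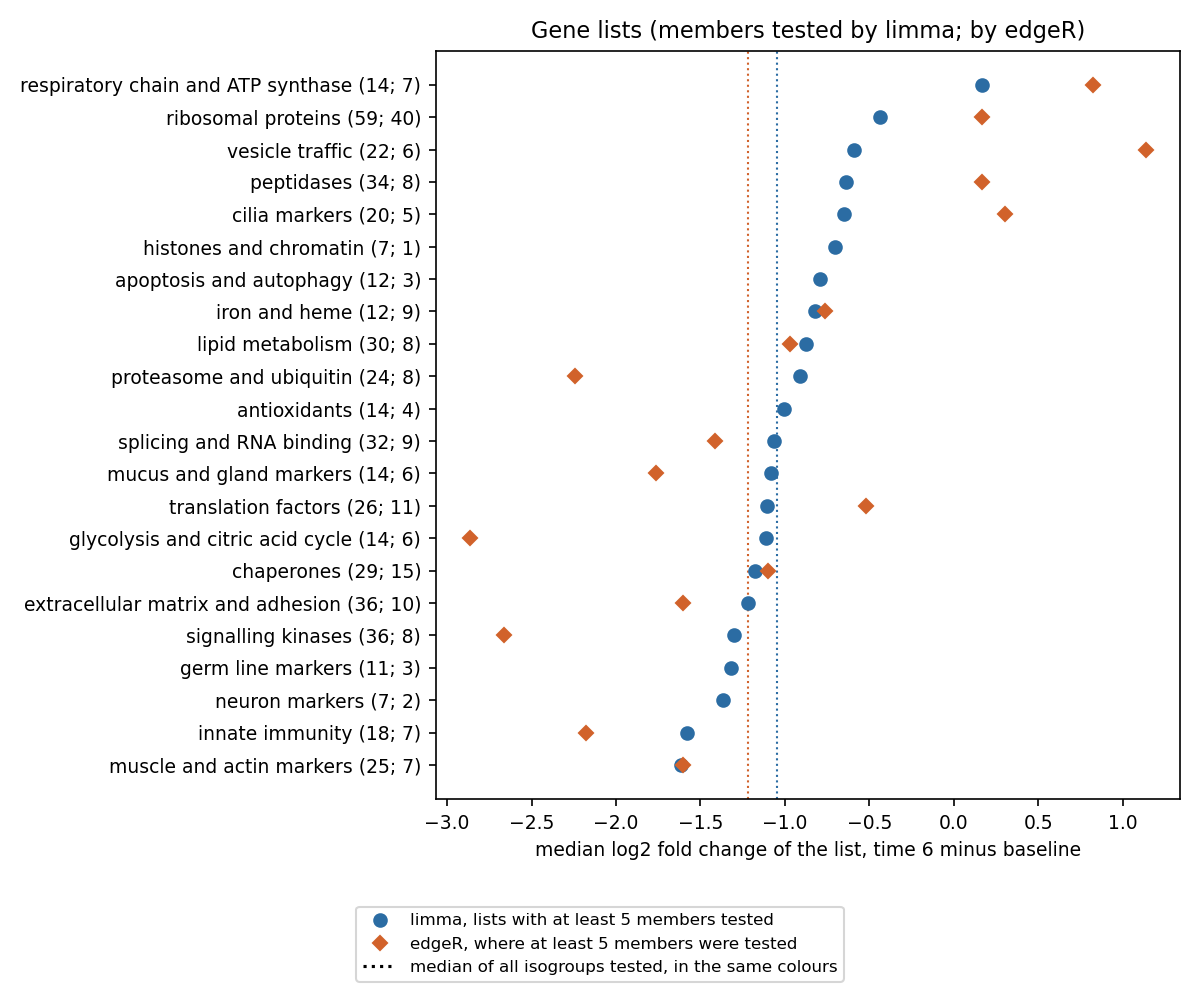
Median log2 fold change (time 6 minus baseline) of each gene list with at least 5 members tested, by limma (circles) and edgeR (diamonds), with dotted lines at the medians of all isogroups tested, -1.05 and -1.22. Ribosomal proteins, the respiratory chain, vesicle traffic, peptidases and cilia markers are among the lists to the right of both lines. Innate immunity and muscle and actin markers are among those to the left.

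Whether the change at time 6 differed between the banks was tested in a fit with a separate change for each. No isogroup differed past the threshold (0% of 622 tested by edgeR, with 31 at an unadjusted p under 0.05, and 0 by limma). The 3 smallest p-values for a lower change at EFGB belonged to a protein kinase domain isogroup (Mcavernosa02043), a sodium-potassium ATPase alpha subunit (Mcavernosa16481), the ion pump that keeps membrane gradients, and the RING finger protein (Mcavernosa19051). The RING finger protein had a log2 change of -8.33 ± 1.67 at EFGB (edgeR adjusted p = 0.000688) and -1.85 ± 1.14 at WFGB (adjusted p = 0.68), and the difference was -6.48 ± 1.93 (adjusted p = 0.189). The ATPase had -7.40 ± 2.24 at EFGB and 1.07 ± 1.23 at WFGB, a difference of -8.47 ± 2.53 with the same adjusted p. The kinase had -9.23 ± 2.26 at EFGB and 0.50 ± 1.82 at WFGB, a difference of -9.73 ± 2.81, again at 0.189. In the other direction a pre-mRNA branch site protein (Mcavernosa13121) differed by 8.74 ± 2.84 (adjusted p = 0.254), a ring finger protein 19A (Mcavernosa13095) by 7.82 ± 2.90 (0.458) and a zinc finger isogroup (Mcavernosa03628) by 5.48 ± 2.01 (0.456). WFGB held both colonies with many isogroups at time 6, 119 and 121, so bank and those libraries cannot be told apart here.

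The same step from baseline to time 6 was set beside 2 other arms, mesophotic controls (7 pairs) and transplants (7 complete pairs, whose baselines carry the mesophotic label). In transplants 71 and 74 the titles carry V-16 at baseline and IX-16 at time 6, so these 2 of the 7 pairs cover another calendar step than the shallow controls. In this joint fit of 1783 isogroups no isogroup was called in either of these arms, and none differed between shallow controls and mesophotic controls or transplants (0% each). At an unadjusted p under 0.05 there were 132 and 88 differences in edgeR, and limma also called 0 of each. Without transplants 71 and 74, an alternative chosen after the data were seen, edgeR again called 0 of 2066 differences from either arm (143 from mesophotic controls and 65 from transplants at an unadjusted p under 0.05). The cytotoxic protein (Mcavernosa18854) changed by 2.78 ± 0.61 in shallow controls (edgeR adjusted p = 0.00417), against 0.63 ± 0.58 in mesophotic controls and 0.41 ± 0.66 in transplants. The difference from mesophotic controls was 2.15 ± 0.81 (adjusted p = 0.623) and from transplants 2.37 ± 0.88 (adjusted p = 0.99). Without transplants 71 and 74 the cytotoxic protein changed by 1.42 ± 0.76 in transplants, and the difference was 1.33 ± 0.96. In that fit NADH dehydrogenase Fe-S protein 6 (Mcavernosa15890) changed by 4.36 ± 2.23 in transplants, and the difference was -0.07 ± 1.44. Proprotein convertase (Mcavernosa11977) changed by -4.15 ± 1.69, with a difference of -1.24 ± 1.86. For calsyntenin these values were -1.02 ± 1.31 and -6.02 ± 1.97. Calsyntenin (Mcavernosa12659) changed by -7.0 ± 1.39 in shallow controls (adjusted p = 0.000827), against -0.59 ± 1.17 in mesophotic controls and -1.53 ± 1.15 in transplants. Its differences were -6.41 ± 1.75 from mesophotic controls (adjusted p = 0.301) and -5.48 ± 1.81 from transplants (adjusted p = 0.99). The DnaJ member (Mcavernosa31810) changed by -6.43 ± 1.63 in shallow controls, 0.37 ± 1.36 in mesophotic controls and -1.10 ± 1.44 in transplants, and differed from mesophotic controls by -6.80 ± 2.08 (adjusted p = 0.441). Ribosomal protein L6 (Mcavernosa17045) changed by 1.76 ± 0.50 in shallow controls (adjusted p = 0.04), 0.67 ± 0.54 in mesophotic controls and 0.91 ± 0.58 in transplants. That a change passed in shallow controls alone does not show that the arms differed.

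Other isogroups with small p-values for a difference between arms also missed the threshold. Against mesophotic controls these were an oxysterol-binding protein (Mcavernosa19730, 6.71 ± 2.60) of lipid transport, WD repeat and FYVE domain containing 3 (Mcavernosa05004, 9.74 ± 3.85), which acts in autophagy in mammals, and polycystic kidney disease 1 like 1 (Mcavernosa01896, -11.97 ± 3.34). Their edgeR adjusted p-values were 0.623, 0.623 and 0.301. Against transplants they were a neuralized homolog (Mcavernosa03900, 7.96 ± 3.39), an isogroup whose name is that of superoxide dismutases (Mcavernosa14547, 7.99 ± 3.49), cryptochrome 1 (Mcavernosa10901, -8.27 ± 2.77) and the calcium-dependent protein kinase (Mcavernosa03065, -7.11 ± 2.50), all at 0.99. Median host counts in the other arms were also higher at time 6, at 230869 against 48304 at baseline in mesophotic controls and 209187 against 31123 in transplants. Median symbiont shares were also smaller at time 6, at 4.49% against 10.2% in mesophotic controls and 6.26% against 11.2% in transplants. The ranges overlapped between the times, and these changes were not tested. The numbers of detected isogroups overlapped between the times in both other arms. Mesophotic controls held 1384, 2684 and 4092 at time 6 and 1303, 3128 and 5428 at baseline, and transplants 1122, 2392.5 and 4729 at time 6 and 1650, 3510 and 4267 at baseline.

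**Figure D5:**
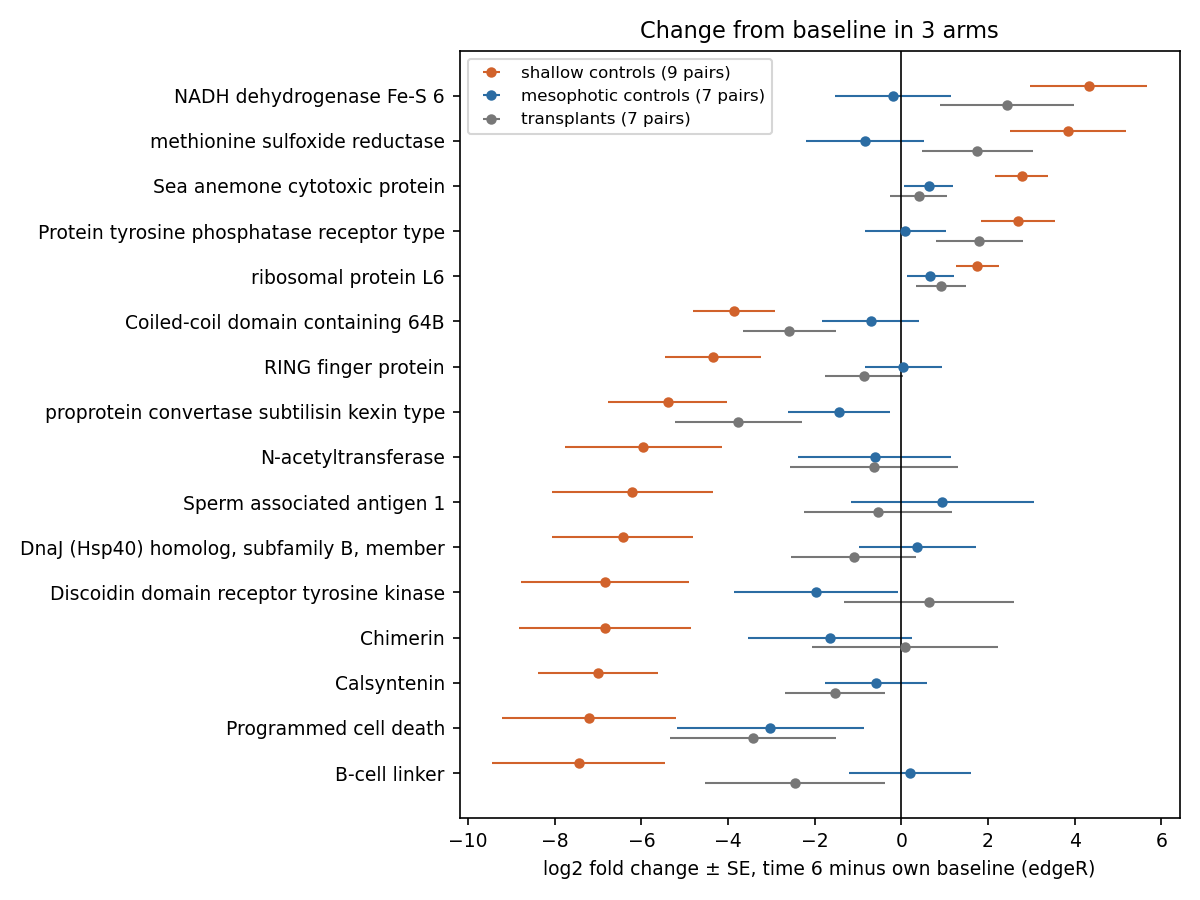
Log2 fold change ± SE from baseline to time 6 in shallow controls (9 pairs), mesophotic controls (7 pairs) and transplants (7 pairs) for 16 isogroups named for their change in shallow controls. Shallow controls lie farthest from 0 for every isogroup, as they were chosen to, and no difference between arms passed the test.

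At time 12 no isogroup passed the edgeR test against baseline, over 8 colonies with both libraries. Colony 187 at time 12 was not analysed here. At time 6 no isogroup was called by edgeR without colony 187 either (0 of 658), though 142 of these had an unadjusted p under 0.05. The counts of calls at the 2 times thus do not differ over matched colonies, while the numbers at an unadjusted p under 0.05 do. A difference between the 2 times was not tested here. The libraries at times 6 and 12 share their baselines, so their values are given side by side, those at time 12 over 9 libraries that include colony 190. With edgeR 0 of 1271 isogroups (0%) were called at time 12 against baseline, 45 had an unadjusted p under 0.05, and limma called 3, all lower. The cytotoxic protein (Mcavernosa18854) had 2966, 12094 and 19170 CPM at baseline, 2251, 43560 and 153395 CPM at time 6 and 163, 3216 and 68545 CPM at time 12, with a log2 change of -1.06 ± 0.72 at time 12. Ribosomal protein L6 (Mcavernosa17045) had 12950, 34660 and 64371 CPM at time 12, a change of 0.40 ± 0.42. Calsyntenin (Mcavernosa12659) had 5.58, 814 and 2294 CPM at time 12 (-1.69 ± 1.23), and the DnaJ member (Mcavernosa31810) 1.82, 2078 and 5431 CPM (-0.78, edgeR adjusted p = 0.991). Phospholipase A2 IVA (Mcavernosa22551) had 7275, 15210 and 18941 CPM at time 12 (0.63 ± 0.63).

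The isogroup with the smallest p at time 12 was a tropomyosin (Mcavernosa22658), an actin-binding protein of muscle. It had 317.1, 446 and 675 CPM at baseline, 17.7, 1635 and 7058 CPM at time 6 and 0, 17.1 and 217.3 CPM at time 12, where the groups at baseline and time 12 did not overlap. The log2 change at time 12 was -4.16 ± 1.18 with an edgeR adjusted p of 0.647. Sterol regulatory element binding transcription factor (Mcavernosa04517), a regulator of lipid synthesis, was at -6.95 ± 2.23 and a receptor accessory protein (Mcavernosa12595) at -5.26 ± 1.78, both with an adjusted p of 0.991. In the other direction HSP90 (Mcavernosa01595) was at 1.59 ± 0.75, casein kinase 1 (Mcavernosa14704) at 2.89 ± 1.43 and proteasome 26S non-ATPase subunit 4 (Mcavernosa20563) at 3.87 ± 2.01, each at 0.991.

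Against natural colonies with the same title code, EFGB controls at time 6 differed in 81 of 1291 isogroups (6.27%) by edgeR's quasi-likelihood test, 13 higher (1.01%) and 68 lower (5.27%). With DESeq2's size factors the split was 5 higher and 80 lower. This comparison of 5 controls with 10 natural shallow libraries titled V-16 has no pairing, since the colonies differ. The number of detected isogroups differed by -0.41 ± 0.26 on the log2 scale (exact permutation p = 0.206). The calls rested on single libraries: 0 were called without the control of colony 188, 3 without that of 187 or 190, and 1 without replicate 7 of the natural libraries.

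The 3 isogroups with the smallest p in each direction are described here. The proteolipid subunit c of the vacuolar ATPase (Mcavernosa12777), a proton pump, had 44.7, 578 and 4305 CPM in controls at time 6 and 0, 0 and 100 CPM in natural libraries (6.48 ± 1.65, edgeR adjusted p = 0.0199). MLX interacting protein (Mcavernosa07471), a transcription factor of glucose response in mammals, had 488, 827 and 1148 CPM in controls and 0, 0 and 86.9 CPM in natural libraries, without overlap (6.67 ± 1.83, adjusted p = 0.0391). A zinc finger isogroup (Mcavernosa03628) had 2319, 5358 and 9167 CPM in controls and 0, 488 and 3215 CPM in natural libraries (3.03 ± 0.75, adjusted p = 0.0153). Cytochrome c oxidase core subunit (Mcavernosa30572), of respiratory complex IV, had 645, 1750 and 7580 CPM in controls and 7437, 19649 and 29924 CPM in natural libraries (-2.41 ± 0.56, edgeR adjusted p = 0.015). An alpha/beta-hydrolase lipase (Mcavernosa17996) had 712, 2277 and 4041 CPM in controls and 189, 9482 and 42227 CPM in natural libraries (-2.54 ± 0.60, adjusted p = 0.015). The isogroup named Programmed cell death (Mcavernosa29751), lower at time 6 against baseline, was also lower here, with 0, 0 and 2.98 CPM in controls and 0, 320.8 and 5810 CPM in natural libraries (-9.38 ± 2.40, adjusted p = 0.0199). The libraries at time 6 take part in both comparisons, so the second is not independent of the first.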

How the data were processed

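The deposited table holds unnormalised counts, with coral and algal isogroups together, and a second file pairs isogroups with gene names from UniProt, per the design text. How reads were aligned, filtered and cleared of duplicates is not given in the sources used here. Groups came from the site, depth and time labels, and pairs from the colony number in the titles, so both libraries of a pair share an animal (residuals of a colony's libraries correlated at -0.029 to 0.257, positive in 6 of 9). The members, lists and tests were chosen with earlier results of these data known. In all, 1 unnamed column was not used.

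Host counts were fitted with edgeR 4.0.16 (R 4.3.3) by robust quasi-likelihood with TMM scaling, filterByExpr over time groups and colony as a block, at a Benjamini-Hochberg adjusted p of 0.05. The SE of a log2 fold change is its size divided by the square root of the F statistic. limma 3.58.1 used log2 CPM with a prior count of 2 for isogroups detected in at least 50% of libraries. Other alternatives were DESeq2 1.42.0, other scalings, filters and minima, covariates, thinning and leaving out each colony. Single values per library were compared with exact permutation tests in numpy 2.4.6, with 0.5 added to counts in log2 odds. Wilson 95% intervals of single symbiont shares, from scipy 1.17.1, were 0.07 to 0.877 percentage points wide and cover counting error only. No columns among the 20 were identical. The tests were checked on simulated counts.

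Isogroups were named when past the edgeR threshold and changed one way in at least 80% of pairs (at most 12 each way by smallest p, or the 5 with the smallest p where fewer passed), plus the list member with the smallest p each way, the 10 most abundant, and the 3 with the smallest p each way in other comparisons. Of these, 1 isogroup is not reported here.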

Additional observations from a re-analysis of the deposited data

Results flagged for a closer look

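Dixon's test was applied to 48 groups of 5 or 9 libraries, and 6 values stood apart from their group, where chance gives about 1 in 20 groups. Of these, 3 were library measures. EFGB colony 169 had 190987 host counts at baseline, far above the other 4 EFGB baselines, and 2498 host isogroups with a count at time 6, far above the other 4 EFGB colonies at time 6. WFGB colony 124 had a symbiont share of 38.1% at baseline (95% Wilson interval 37.7% to 38.5%, counting error only), the highest of the 5 WFGB baselines, and that library is in barcode run 1.

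The other 3 were levels of single isogroups over 9 colonies on the log2(CPM + 1) scale. NADH dehydrogenase Fe-S protein 6 (Mcavernosa15890) had 0 CPM at time 6 in colony 121, where the library holds 20931 host counts. The isogroup named Programmed cell death (Mcavernosa29751) had 0 CPM at baseline in colony 121. The discoidin domain receptor tyrosine kinase (Mcavernosa25058) had 10.5 CPM at baseline in colony 169.

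The change in symbiont share differed between the banks when the 3 colonies with a baseline in barcode run 1 were left out. The EFGB change minus the WFGB change was then -2.02 in log2 odds, with an exact permutation p of 0.0286 (n = 3 and 4). Over all 5 and 5 colonies the difference was -2.15 with an exact permutation p of 0.0873, so the size moved little between these and the p crossed the threshold. Leaving out run 1 was chosen after the data were seen.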

How the results depend on the processing

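Of the isogroups tested at time 6 against baseline 9.16% (57) were called, and the number called moved by over 1.5 times under most alternatives. Limma called 224, but of 2186 tested, so its percent called was near that of edgeR. The percent called under each alternative follows. It was 5.31% with DESeq2's size factors and with barcode run as a covariate, 0% of 10458 without a filter on low counts (704 at an unadjusted p under 0.05), 10.2% with limma, 2.41% with no replicate block (14 higher and 1 lower, 7 of these 15 among the 57), 50% with DESeq2, 0% with detected isogroups as a covariate, 13.8% with a minimum of 50000 host counts, 18.9% with no minimum, 1.31% after thinning, 25.2% without colonies 119 and 121 and 0% in colonies 119, 121 and 169 alone. Leaving out 1 colony gave 0% to 15.8%. The cause was not tested, beyond fewer samples where samples were left out. For the difference between banks, 0% became 0.322% with no replicate block (2 isogroups), and 0% to 0.368% without 1 colony (2 without 169, 1 without 120 or 124). For shallow controls against mesophotic controls it became 0.0561% with no replicate block (1 isogroup) and 0% to 0.057% without 1 pair. For time 12 it became 0.14% with limma (3 isogroups). For EFGB controls against natural libraries, 6.27% (81) became 0% without a filter (of 8200) and 2.28% with limma (29), and leaving out 1 library gave 0% to 6.86%. No paired analysis was possible because the colonies differ in that last comparison.

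The change in symbiont share was -2.02 to -1.41 with 1 colony left out, and -0.79 (exact p 0.156) without baselines of barcode run 1. The change in detected isogroups was -1.05 to -0.73 with 1 colony left out, and -0.76 (exact p 0.125) without those baselines.

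Of 59 named isogroups, the 26 called kept their direction in 550 of 554 combinations of isogroup and setting, and their call in 48% of these. Most settings used the same pairs or left out 1, so the direction had little room to change. In colonies 119, 121 and 169 alone, 4 of the 26 reversed, with edgeR adjusted p 0.982: the cytotoxic protein Mcavernosa18854 (-0.30), DnaJ Mcavernosa31810 (0.13), cryptochrome 1 Mcavernosa10901 (1.05) and Arp2/3 subunit 4 Mcavernosa23568 (1.33). Isogroups that were not called reversed there too: Mcavernosa22970 (-0.95), Mcavernosa17048 (0.21), Mcavernosa23833 (0.29), Mcavernosa17017 (-0.80), Mcavernosa21412 (0.27), Mcavernosa19235 (-0.45), Mcavernosa22587 (-0.11), Mcavernosa28819 (0.47), Mcavernosa20310 (-0.74), Mcavernosa05007 (0.98), Mcavernosa27195 (-0.24), Mcavernosa28398 (-0.36) and Mcavernosa03628 (-0.28). With detected isogroups as a covariate Mcavernosa22970 (-0.23), Mcavernosa17017 (-0.21) and Mcavernosa03628 (-0.17) reversed. CCAAT/enhancer binding protein alpha, Mcavernosa26831, was -0.24 with limma, -0.25 with library size alone, -0.43 after thinning and -0.16 without colonies 119 and 121. Mcavernosa03628 was -0.71 with limma, -0.14 with library size alone, -0.23 after thinning, and between -0.26 and 0.86 with 1 colony left out (below 0 without 187, 188 or 189).

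The shallowest paired library, a baseline, holds 20175 host counts, so an isogroup at 0 there is not shown to be absent.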
